A study of Mus musculus with 24 samples.

Results

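Het G610C OBs were followed from day 8 to day 14 of culture in 8 of the 24 RNASeq libraries of the series, 4 at each day, taken as every library labelled Het at these days. The cells were primary parietal OBs under osteogenic differentiation, pooled from pups that were 4 to 5 days old and kept on the C57BL/6J background, and grown with ascorbic acid 2-phosphate. G610C replaces a glycine in the triple helix of the α2(I) chain of type I procollagen (Col1a2), and Het cells carry 1 mutant allele, at day 8 as at day 14. Every library labelled Het therefore carries the mutation, and the WT cultures of the same days served only to test whether a change differed between the genotypes. The study describes a pair of experiments with cells from other litters, other plating densities and another oxygen regimen, and the labels do not say which replicate belongs to which. It describes fewer wells per genotype and day than the 4 replicates in the labels, and all 4 were used as labelled. Wells of one experiment share a pool of pups, so the p-values measure the spread between these libraries and not between animals. Levels are given as RQ, which sets each gene's count against the geometric mean of 4 housekeeping genes (Actb, Actg1, Sdha and Mrfap1) within its own library, here per 1000 housekeeping counts.

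OBs are the cells that make bone. They first multiply, then fill the extracellular space with type I collagen, then switch on genes of mineralization, and some of them become osteocytes, the cells embedded in bone that secrete sclerostin and other regulators. Procollagen is folded in the ER by hydroxylases and chaperones. Cells that sense amino acid shortage, ER stress or mitochondrial trouble can start the integrated stress response (ISR). In the ISR the transcription factor ATF4 and its partners raise genes for amino acid synthesis, amino acid transport and redox balance. Misfolded proteins of the ER lumen and of mitochondria have their own responses, called ER-UPR and mt-UPR, and the ER-UPR can itself start the ISR.

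Between day 8 and day 14, 3488 of 18200 genes tested rose (19.2%) and 1108 fell (6.09%), at an adjusted p under 0.05 in edgeR's quasi-likelihood test (25.3% in either direction). The rises were also the larger changes: 346 rose and 12 fell by more than 8-fold, and 1611 rose and 304 fell by more than 2-fold. The housekeeping scale sets this balance in part, because the housekeeping genes themselves had a mean CPM of 600.4 ± 38.4 at day 8 and 499 ± 19.9 at day 14 (SD, n = 4). On it the median change of all genes was 0.12 on the log2 scale, against 0.00 with edgeR's TMM factors and -0.14 with total counts. Higher genes made up 75.9% of the calls on the housekeeping scale, 54.7% with TMM (2570 higher and 2129 lower) and 34.8% with total counts (2070 and 3884). Actg1, Actb, Mrfap1 and Sdha did not pass the test on the housekeeping scale, with log2 changes from -0.05 to 0.12.

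Totals ran from 25825762 to 50829572 counts per library at day 8 and from 17140202 to 56219341 at day 14. Replicate 1 stood apart from the others at both days. Its root mean square log2 distance to the other libraries of its day was 0.74 to 0.89, against 0.30 to 0.56 among replicates 2 to 4. Counts of calls without replicate 1 are given below where they change what is said. Over all genes they were 6274 higher and 1783 lower, and 4542 of the 4596 genes called in all 8 libraries were called again.

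**Figure D1:**
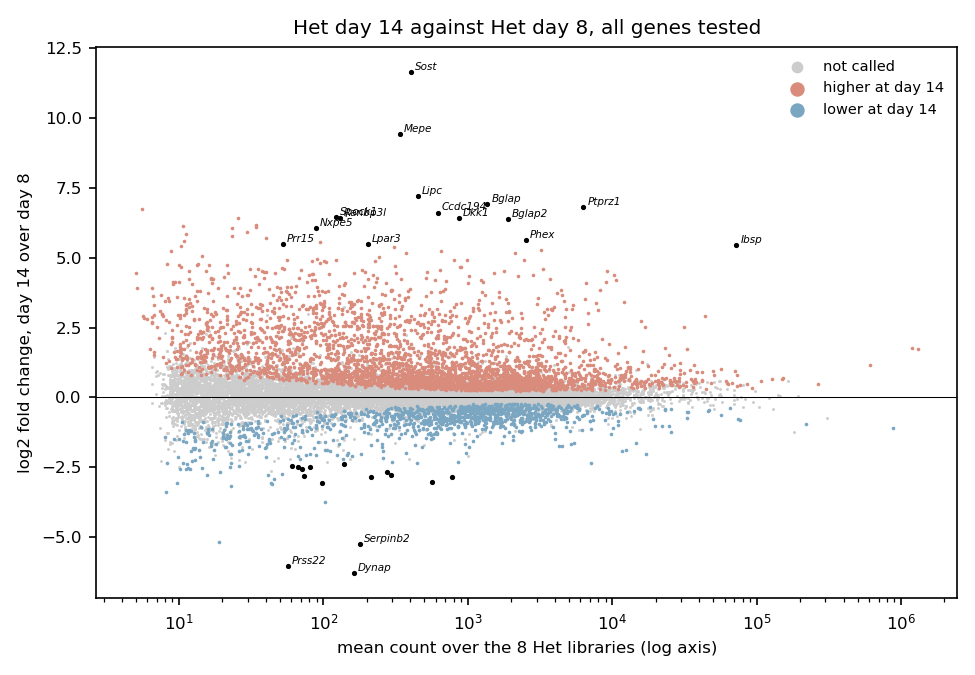
Log2 fold change from Het day 8 to Het day 14 (y axis) against the mean count over the 8 libraries (log x axis) for the 18200 genes tested, with genes higher at day 14 in red, lower in blue and not called in grey. The 15 largest rises and 15 largest falls named by rule are black dots, and Sost (11.65) and Mepe (9.44) stand above the other rises, of which the next is Lipc at 7.21, while 12 of the genes called lower pass -3 on the log2 scale.

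Genes of mature OBs and osteocytes made up 8 of the 15 largest rises named by rule. Of 32 genes of mature OBs and mineralization, 25 rose and 2 fell, with a median log2 change of 2.63 against 0.12 for all genes tested. Of 21 osteocyte genes tested, 12 rose and none fell (median 1.51), and 7 of the 15 largest named rises are on neither list. The day groups did not overlap in RQ for 28.2% of all genes tested, and they did not overlap for any of the 30 genes named for the largest changes, since the rule asked for it.

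Sost encodes sclerostin, the Wnt inhibitor that marks mature osteocytes (GRCm38 chr11:101962458-101967015, minus strand). It was at 0 in day 8 replicates 1 to 3 and at 0.0323 in replicate 4, which was 1 count in all. At day 14 it stood at 61.3, 68.2, 38.3 and 32.6 in replicates 1 to 4. The pooled counts, 1 against 3231, give a ratio of 4577 with an exact 95% interval of 821 to 180850, which covers counting error only. The fitted log2 change was 11.65 ± 0.55 SE (quasi-likelihood test, adjusted p = 5.32e-06). All 4 libraries at day 14 were thus far above all 4 at day 8.

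Mepe, a phosphoprotein of osteocytes and mineralizing matrix, was the next largest rise. Its RQ was 0.285, 0, 0.11 and 0.0323 at day 8 and 188, 24.9, 13.4 and 15.6 at day 14 (log2 change 9.44 ± 1.43 SE, adjusted p = 0.00146). Replicate 1 carried most of the day 14 mean, and the lowest day 14 value was still far above the highest at day 8. Dmp1, which osteocytes secrete into the matrix, moved from 4.98, 3.07, 3.24 and 4.04 to 82.7, 145, 79.5 and 80.4, a 25.6-fold rise. Phex, the protease whose loss causes X-linked phosphate wasting, moved from 1.78, 8.37, 6.14 and 5.1 to 221, 384, 266 and 233 (50.1-fold). Dkk1, another secreted Wnt inhibitor, moved from between 0.142 and 1.47 to between 53.2 and 156 (86.5-fold). Ptprz1, a receptor-type tyrosine phosphatase, rose 114-fold to between 475 and 1097. Other members of the osteocyte list did not pass the test: Tnfsf11 (RANKL) had a log2 change of -0.10 and Pdpn, an early osteocyte marker, one of 0.19.

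The transcription factors Runx2, Sp7 and Dlx5 of the OB lineage rose. Runx2, which commits cells to the OB lineage, went from 99.7, 154, 131 and 126 to 203, 236, 285 and 236, a 1.88-fold rise (adjusted p = 0.00227). Sp7 (osterix), which acts after Runx2, rose 3.05-fold and Dlx5 2.07-fold. Alpl, the alkaline phosphatase that frees phosphate for mineral, rose 5.7-fold from between 251 and 300 to between 1309 and 2048. Phospho1, the phosphatase of matrix vesicles, rose 18.3-fold and Smpd3, a sphingomyelinase needed for mineralization, 23-fold. Ifitm5, an OB membrane protein, was among the steadiest of the large rises, from 4.7, 6.55, 8.21 and 6.04 to 218, 269, 217 and 218 (log2 change 5.16 ± 0.18 SE). The levels of these genes therefore separated the days in all 4 replicates.

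Ibsp, bone sialoprotein, rose 43.9-fold from 321, 113, 133 and 182 to 10087, 8178, 7465 and 7155. Ibsp, Mepe and Dmp1 are neighbours on mouse chromosome 5, with Ibsp at chr5:104299171-104311469, Mepe at chr5:104325329-104338611 and Dmp1 at chr5:104202613-104214102. Spp1 (osteopontin), at chr5:104435118-104441050, is the next of these matrix phosphoproteins, and it had a log2 change of 0.09 ± 0.38 SE, with 2702 to 5190 at day 8 and 2101 to 6487 at day 14. Ibsp, Mepe and Dmp1 thus rose by more than 20-fold and Spp1, whose exons overlap a predicted gene on the same strand, did not pass the test. The 2 members of the OB list that fell were Msx2, a homeobox factor of the early lineage (from between 272 and 319 to between 70.3 and 114, log2 change -1.74), and Slc20a1, a phosphate transporter (log2 change -1.68). Enpp1, which makes the mineralization inhibitor pyrophosphate, had a log2 change of -1.19 and an adjusted p of 0.104, which became 0.0169 with the replicate number as a block.

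Bglap and Bglap2 encode osteocalcin, the small protein that late OBs release into bone. Bglap went from 3.63, 0.405, 0.736 and 1.52 to 62.9, 424, 89.9 and 93.7 (log2 change 6.91 ± 0.90 SE, adjusted p = 7.06e-04), and Bglap2 from between 1.21 and 6.05 to 73.4, 561, 134 and 140. Replicate 2 at day 14 was more than 4 times any other library in both genes, and the other 3 libraries were still above all of day 8. These genes and Bglap3 are near-identical copies on chromosome 3, so reads may have been shared among them and their separate values are uncertain. The 250 bases before the start sites of Bglap and Mepe are shown because they hold the core letters ACCACA bound by RUNX proteins, in capitals here on either strand (RefSeq windows on GRCm38.p6, Bglap at chr3:88384467-88384716 on the minus strand and Mepe at chr5:104325079-104325328 on the plus strand).
Bglap: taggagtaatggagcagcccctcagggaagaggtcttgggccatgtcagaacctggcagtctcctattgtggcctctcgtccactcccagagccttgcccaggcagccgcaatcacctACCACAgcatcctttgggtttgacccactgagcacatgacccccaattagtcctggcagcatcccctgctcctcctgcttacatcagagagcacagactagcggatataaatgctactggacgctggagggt
Mepe: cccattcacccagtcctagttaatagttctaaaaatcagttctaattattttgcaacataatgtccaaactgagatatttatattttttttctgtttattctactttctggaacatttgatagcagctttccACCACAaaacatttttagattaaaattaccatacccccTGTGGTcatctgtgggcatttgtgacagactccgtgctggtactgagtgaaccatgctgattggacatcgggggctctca
The Bglap match begins 132 bases before the start site, and the Mepe matches 118 and 80 bases before it. The letters were found in any window of 6 of the 18 OB genes with a RefSeq window. Counted in the same way, 15.9% of 27025 gene symbols held them, and 14.0% of all 32817 single windows searched. A match is a description of the letters and not of binding.

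**Figure D2:**
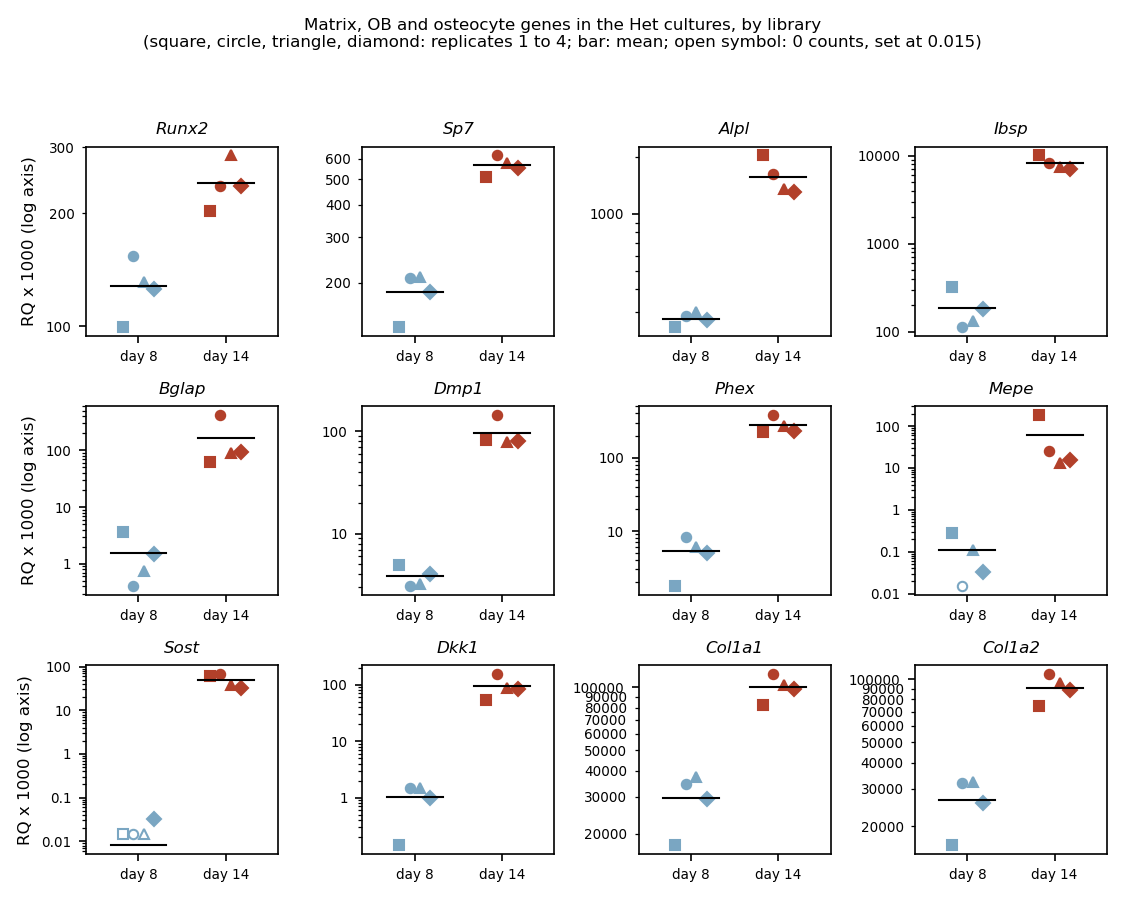
RQ per 1000 housekeeping counts (log y axis) of 12 genes in the 4 Het libraries at day 8 (blue) and the 4 at day 14 (red), with replicates 1 to 4 as square, circle, triangle and diamond, the mean as a bar, and open symbols for 0 counts set at 0.015. The day groups do not overlap in any of the 12 panels, and the fold is smallest for Runx2 (1.88-fold) and largest for Mepe and Sost.

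Several of the largest rises lie outside the lists. Lipc, hepatic lipase, rose 148-fold, from between 0.213 and 0.675 to 50.7, 124, 27.4 and 31.3. Ccdc194, a coiled-coil protein, rose 98.4-fold from between 0.427 and 0.807 to between 62.1 and 91.1. Spock1, a matrix proteoglycan, rose 88.7-fold and Ranbp3l, a nuclear export factor for SMADs, 85.5-fold. Lpar3, a lysophosphatidic acid receptor, rose 45.4-fold with day 14 values of 18.5, 30.3, 20.1 and 20.1. Nxpe5 (66.5-fold) and Prr15 (45.4-fold) were at lower counts, with day 14 values of 4.08 to 11.8 and 2.95 to 12.5. Exons of Prr15 overlap an antisense gene, and the sources do not state a strand setting for the counting.

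The share of all counts on Col1a1 and Col1a2 rose from 1.84%, 4.2%, 4.31% and 3.35% at day 8 to 8.07%, 10.6%, 9.68% and 9.62% at day 14. The ratio of the means was 2.77, and the day groups did not overlap (two-sided exact permutation p = 0.0286, the smallest that 4 against 4 allows, adjusted 0.0381 over 4 shares). The 10 genes with the most counts took 12.02 ± 0.326% of all counts at day 8 and 16.15 ± 0.512% at day 14 (exact permutation p = 0.0286, adjusted 0.0381). In RQ, Col1a1 rose 3.36-fold to between 82667 and 115836 and Col1a2, the gene that carries the mutation, 3.42-fold, and replicate 1 was the lowest library of each day for both. These counts do not separate the mutant from the normal Col1a2 allele.

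Of 31 fibrillar collagens and bone matrix proteins tested, 10 rose and 1 fell (median 0.51), and with the replicate block 13 rose and 2 fell. Col24a1, a collagen of ossifying bone, rose 7.8-fold, Col11a2 2.85-fold, Sparc (osteonectin) 2.25-fold and Col5a1, which sets fibril width, 1.58-fold. Col5a1 no longer passed with TMM (log2 0.52, adjusted p = 0.0926). Col3a1 had a log2 change of 0.60 and an adjusted p of 0.0955, or 0.0288 with the block. Fn1, the fibronectin on which early matrix is laid, was the member that fell, from 73329, 42122, 47736 and 55466 to 38498, 21695, 22559 and 20170 (log2 -1.09, adjusted p = 0.0119). Chad, chondroadherin, was at 73.8 in day 14 replicate 1 and at 2.7 to 7.37 in the others, with an adjusted p of 0.0591.

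Of 32 genes for procollagen folding, modification and export, 16 rose and 1 fell (median 0.35). Without replicate 1, 26 rose, in a fit where calls over all genes went from 4596 to 8057. P4ha1, a catalytic subunit of the prolyl 4-hydroxylase that stabilizes the triple helix, rose 5.67-fold from 368, 527, 579 and 475 to 1678, 4117, 2750 and 2509. P3h2, a prolyl 3-hydroxylase, rose 5.61-fold. Creb3l1 (OASIS), an ER membrane transcription factor of procollagen genes, rose 4.22-fold to 731, 816, 669 and 646, and its day 8 values were 149, 167, 189 and 173. Genes of the core folding machinery rose less: Serpinh1 (HSP47), the collagen-specific chaperone, 1.61-fold, P3h1 1.6-fold, Crtap 1.57-fold and Fkbp10 1.5-fold. P4ha3, another prolyl 4-hydroxylase subunit, fell by 0.64 on the log2 scale. These 4 core genes thus rose by less than 2-fold, against 3.36-fold for Col1a1 and 3.42-fold for Col1a2.

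Among 13 genes of procollagen cleavage and crosslinking, 5 rose and 1 fell. Loxl4, a lysyl oxidase, rose 7.32-fold and Adamts2, the main procollagen N-proteinase, 2.78-fold, while Loxl1 had a log2 change of -0.84 (adjusted p = 6.56e-04). Among 23 matrix-degrading enzymes and their inhibitors, 8 rose and 1 fell. Mmp13, the collagenase of bone, rose 3.3-fold and Mmp3, stromelysin, 6.26-fold, the latter to only 1.47 in replicate 1 and 5.81 to 10.7 in the others. Fap, a surface serine protease, rose 3.42-fold.

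ISR targets rose as a group. Of 40 listed genes, all tested, 37 rose and none fell, with a median log2 change of 1.24 against 0.12 for all genes. The list overlaps the markers that the study chose with these samples at hand, so it is not independent evidence of direction. Trib3, a pseudokinase induced by ATF4 and CHOP (chr2:152337422-152344032, minus strand), rose 22.8-fold from 7.04, 7.25, 10 and 7.17 to 97.6, 251, 191 and 179 (log2 4.51 ± 0.29 SE, adjusted p = 2.43e-05). Nupr1, a small stress-induced chromatin protein, rose 14.4-fold from 88, 45.4, 48.9 and 59.5 to 680, 1359, 710 and 721. Day 14 was above day 8 in all 4 replicates of both genes.

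Transcription factors of the response rose as well. Atf4 went from 462, 252, 278 and 323 to 578, 860, 723 and 697 (2.17-fold, adjusted p = 0.0037). Atf5 went from 191, 122, 151 and 166 to 397, 506, 444 and 426 (2.82-fold). Ddit3 (CHOP), which promotes apoptosis under lasting stress, rose 3.88-fold, and its exons overlap those of Mars on the other strand, so its value is uncertain. Among the transporters, Slc7a11, the cystine-glutamate exchanger, rose 9.25-fold and Slc7a3, a carrier of basic amino acids, 13.7-fold. Asns, asparagine synthetase, rose 2.86-fold, Pck2, the mitochondrial PEP carboxykinase, 3.22-fold and Cth, which makes cysteine, 4.84-fold. Chac1, which degrades glutathione, rose 9.24-fold and Vldlr, a lipoprotein receptor, 12.8-fold. Secreted members rose too: Fgf21 13.7-fold at low counts (from between 0.355 and 0.427 to between 2.15 and 7.6), Gdf15 3.37-fold and Stc2 6.31-fold. The 3 members that did not pass were Jdp2 (log2 0.07), Sesn2 (0.38) and Cebpb (0.43), and Sesn2 passed with the block (adjusted p = 0.0375).

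The size of the ISR change depended on the replicate. The median log2 difference of the 40 genes was 0.52 in replicate 1 and 1.83, 1.48 and 1.26 in replicates 2, 3 and 4, and the difference was smaller in replicate 1 than in the mean of the others for 38 of the 40 genes. In replicate 1, 34 of the 40 were higher at day 14, and Jdp2, Cebpb, Slc1a4, Phgdh, Cebpg and Psph were lower. The corresponding medians of all genes tested were -0.06, 0.18, 0.27 and 0.14. Vldlr and Stc2 were the exceptions. For many members replicate 1 was the highest library at day 8 and the lowest at day 14, as Atf4, Asns and Pck2 show. Without replicate 1, 39 of 40 rose (median 1.49).

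**Figure D3:**
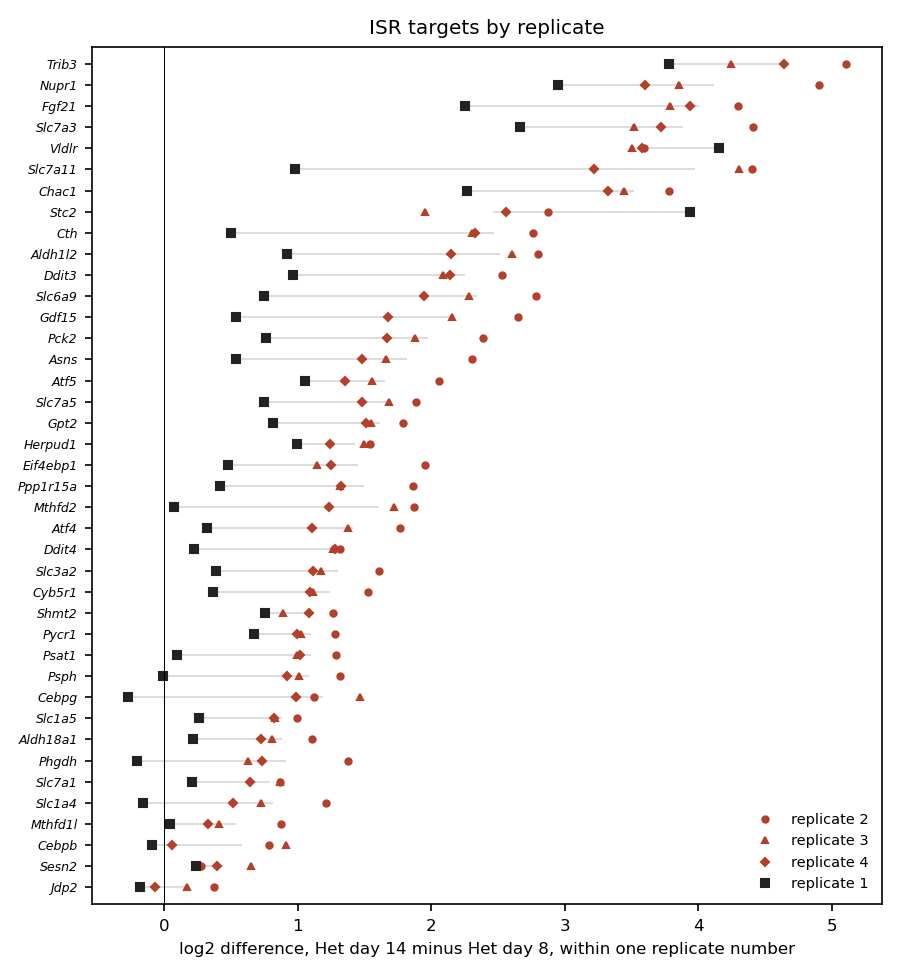
Log2 difference between Het day 14 and Het day 8 within each replicate number (x axis) for the 40 ISR targets (y axis, sorted by fitted log2 change), with replicate 1 as black squares and replicates 2, 3 and 4 as red circles, triangles and diamonds. Replicate 1 lies left of the mean of the others for 38 genes, with a median of 0.52 against 1.26 to 1.83.

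ATF4 binds composite elements in which an ATF half-site meets a C/EBP half-site, with the letters TGATGNAA. The 250 bases before the RefSeq start sites of 5 ISR targets that rose more than 3-fold are shown with this motif in capitals on either strand (GRCm38.p6). Chac1 lies at chr2:119350992-119351241 on the plus strand, Nupr1 at chr7:126625471-126625720 on the minus strand, Slc7a11 at chr3:50443614-50443863 on the minus strand, Pck2 at chr14:55540016-55540265 on the plus strand and Fgf21 at chr7:45615491-45615740 on the minus strand.
Chac1: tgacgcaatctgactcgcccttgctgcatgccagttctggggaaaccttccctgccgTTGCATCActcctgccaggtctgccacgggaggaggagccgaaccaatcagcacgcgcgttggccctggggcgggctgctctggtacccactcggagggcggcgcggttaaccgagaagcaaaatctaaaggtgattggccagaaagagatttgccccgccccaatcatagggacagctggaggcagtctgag
Nupr1: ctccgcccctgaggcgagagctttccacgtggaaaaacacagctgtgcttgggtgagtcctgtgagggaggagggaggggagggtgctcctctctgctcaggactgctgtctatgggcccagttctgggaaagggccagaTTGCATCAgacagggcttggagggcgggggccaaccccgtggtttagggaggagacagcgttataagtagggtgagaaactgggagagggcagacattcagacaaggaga
Slc7a11: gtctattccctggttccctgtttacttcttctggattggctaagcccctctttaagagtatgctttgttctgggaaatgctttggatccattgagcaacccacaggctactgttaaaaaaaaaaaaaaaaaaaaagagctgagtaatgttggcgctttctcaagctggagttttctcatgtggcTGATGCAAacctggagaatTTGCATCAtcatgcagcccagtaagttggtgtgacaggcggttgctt
Pck2: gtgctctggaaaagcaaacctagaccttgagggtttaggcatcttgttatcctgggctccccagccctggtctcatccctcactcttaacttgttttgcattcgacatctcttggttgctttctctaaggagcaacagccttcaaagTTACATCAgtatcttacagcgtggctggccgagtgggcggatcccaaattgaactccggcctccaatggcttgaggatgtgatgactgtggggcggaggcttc
Fgf21: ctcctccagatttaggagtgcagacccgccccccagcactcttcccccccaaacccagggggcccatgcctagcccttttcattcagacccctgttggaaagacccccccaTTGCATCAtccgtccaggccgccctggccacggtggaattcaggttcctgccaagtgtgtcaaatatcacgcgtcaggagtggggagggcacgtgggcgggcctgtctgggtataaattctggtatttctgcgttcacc
The first letter of the match stood 193 bases before the start site in Chac1, 110 in Nupr1, 103 in Pck2 and 139 in Fgf21, and Slc7a11 held a pair of matches in opposite orientation at 66 and 47 bases. RefSeq windows were matched for 34 of the 40 ISR targets, and 10 of them (29.4%) held the motif in any of their windows. Counted in the same way, 3.91% of 27025 gene symbols did, and 3.45% of all 32817 single windows. The 10 genes with a match had log2 changes from 0.07 to 3.85 (median 2.45) and the 24 without from 0.38 to 4.51 (median 1.08). The highest of the latter is Trib3. A missing match says only that these letters are not in this window.

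Of 20 aminoacyl-tRNA synthetases, which charge tRNAs and include known ATF4 targets, 9 rose and none fell (median 0.44), led by Sars (1.84-fold) and Eprs (1.8-fold). With total counts 5 rose and 3 fell. Without replicate 1, 15 rose, in a fit where calls over all genes went from 4596 to 8057. Of 28 ER-UPR genes 8 rose and none fell, with a median of 0.13, close to the 0.12 of all genes, and with total counts 7 rose and 6 fell. The members that rose were Ero1l, an ER oxidase (3.92-fold), Ern1 (IRE1, 2.36-fold), Xbp1 (1.69-fold), Atf6 (1.65-fold), Dnajb9, Edem1, Selenos and Derl1. The ER lumen chaperone genes Hspa5 (BIP), Hsp90b1 and Calr did not pass. Hspa5 was at 1795, 1463, 1473 and 1515 at day 8 and at 1732, 1939, 1777 and 1730 at day 14 (log2 0.20 ± 0.10 SE, adjusted p = 0.194). Hsp90b1 had a log2 change of 0.08 and Calr one of -0.07. Without replicate 1, Hspa5 passed (adjusted p = 0.0294). Ero1l rose to only 89.5 in replicate 1, against 245 to 390 in the others. Dnajb9 rose 1.86-fold and missed the threshold with the block (adjusted p = 0.0505).

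Of 14 mt-UPR genes, 4 rose and none fell, and with total counts 2 rose and 4 fell. Hspa9, the mitochondrial HSP70, went from 521, 388, 418 and 433 to 560, 914, 774 and 707 (1.68-fold, adjusted p = 0.00866), and the day 14 value of replicate 1 was only just above its day 8 value. Lonp1, a protease of the mitochondrial matrix, rose 1.66-fold and Dnaja3, a partner of HSPA9, 1.34-fold. Hspd1 and Hspe1, the mitochondrial chaperonin and its lid, had log2 changes of -0.11 and 0.00. None of the 13 mitochondrially encoded genes passed. Their share of all counts was 1.75%, 1.51%, 0.897% and 1.37% at day 8 and 1.03%, 0.792%, 1.6% and 1.48% at day 14, with overlapping groups (exact permutation p = 0.571). Among 32 nuclear genes of the respiratory chain, 4 rose and 1 fell, where 19.2% of all genes tested rose and 6.09% fell. Without replicate 1, 19 of the 32 rose, in a fit where calls over all genes went from 4596 to 8057. The largest rises were in muscle-type isoforms, Cox8b at near-zero day 8 counts, Cox6a2 (10.5-fold) and Cox7a1 (2.25-fold).

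Of the 27 markers that the study followed in cultured OBs, 20 rose and none fell. Those not yet given were Eif3c (1.74-fold), Eif4ebp1 (2.37-fold), Cyb5r1 (2.11-fold), Gpt2 (2.8-fold), Shmt2 (2.01-fold), Lrp5 (2.2-fold) and Avil (6.71-fold). The 7 that did not pass were Hspd1, Hspe1, Trap1, Hsp90b1, Clpp, Hspa5 and Rcc2. Trap1 had a log2 change of 0.01 and counted as lower with total counts (-0.26, adjusted p = 0.0153).

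Genes of the cell cycle and DNA replication fell together and by a small factor. Of 51 members 45 fell and 1 rose (median -0.66), and the median was -0.77 in replicate 1 and -0.62 to -0.68 in the others. Rrm2, a subunit of ribonucleotide reductase, fell from 263, 254, 227 and 245 to 109, 98.3, 101 and 102 (log2 -1.27 ± 0.08 SE). Cdc6, which licenses replication origins, had a log2 change of -1.12, Cdk1 one of -0.66, Mki67 (Ki-67) one of -0.60 and Top2a one of -0.59. Mki67 was still at 310 to 375 at day 14, against 493 to 533 at day 8. Ccnd1, cyclin D1, was the member that rose (1.62-fold), and it did not pass with TMM (log2 0.56, adjusted p = 0.064). Of 21 CDK inhibitors and p53 targets 4 rose and 2 fell (median -0.004), where 19.2% of all genes tested rose and 6.09% fell. Cdkn1a (p21) rose 2.02-fold from between 368 and 718 to between 956 and 1093, and Gadd45a rose 2.34-fold.

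The largest falls were in genes at low counts whose day 8 level was highest in replicate 1. Dynap, a membrane protein of the Golgi and cell surface, went from 34.7, 5.16, 8.24 and 13.7 to 0, 0.223, 0.219 and 0.225 (78.7-fold lower, adjusted p = 5.47e-04). Prss22, a secreted tryptase, was 65.1-fold lower and Serpinb2, the plasminogen activator inhibitor type 2, 38.3-fold lower, the latter from 50.2, 2.23, 3.31 and 17.3 to between 0.372 and 0.68. Exons of Serpinb2 overlap those of Serpinb10. In each of these genes replicate 1 was the highest day 8 library and replicate 4 the next.

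The other 12 falls named by rule had log2 changes from -3.05 to -2.37. They include 2 connexins (Gjb2, -2.85, and Gjb5, -2.48), 2 receptors of the interleukin 1 family (Il1rl1, the IL-33 receptor, -2.86, and Il18rap, -2.44), Ccbe1, a secreted factor of lymphatic growth (-3.05), Crocc2, a rootlet protein (-3.03), Pou2af1, a transcriptional coactivator (-2.80), Serinc2 (-2.79), Clca3a1 (-2.56), Nipal1, a magnesium transporter (-2.48), and Kcnj15, a potassium channel (-2.37). Des, desmin, an intermediate filament of muscle, was the one fall in which replicate 1 was the lowest day 8 library, from 11.7, 17.8, 25.5 and 19.7 to 3.17, 2.83, 3.43 and 2.34. Il1rl1 had the highest mean count of these falls, with 112, 40.4, 36.8 and 58.5 at day 8 and 5.78, 12.4, 8.43 and 7.29 at day 14. Of 20 contractile genes 4 fell, Des among them, 1 rose and 15 did not pass (median -0.24), with Cnn1 at -0.88 and Tagln at -0.51, while Acta2 had a log2 change of -0.36 and an adjusted p of 0.0577.

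Signalling pathways moved in parts. Of 42 Wnt pathway genes tested 14 rose and 1 fell (median 0.51), and with the block 18 rose and 5 fell. After Sost and Dkk1, the secreted antagonists Frzb (13.9-fold) and Wif1 (5.54-fold) rose, as did Tcf7, a transcription factor of the pathway (6.54-fold, from 16.8, 25.9, 25.4 and 23 to 136, 143, 171 and 148). Axin2, a common readout of the pathway, had a log2 change of 0.02 and Lef1 one of -1.24 (adjusted p = 0.12, or 0.00719 with the block). Wnt2b was the member that fell (log2 -1.08). Of 44 BMP and TGF-beta genes 13 rose and 6 fell (14 and 10 with the block, 12 and 11 with TMM). Bmp3 rose 20.2-fold, Bmp2 6.62-fold, the BMP antagonist Nog (noggin) 4.12-fold and Tgfb1 3.72-fold. Ltbp1, which tethers latent TGF-beta to the matrix, had a log2 change of -1.94.

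Among 16 hormone and vitamin receptors 8 rose and none fell, led by Pth1r, the receptor of parathyroid hormone (3.75-fold), Vdr, that of vitamin D (3.6-fold), and Esr1 (2.92-fold). Of 20 genes of the IGF pathway and imprinted growth genes 2 rose and 3 fell, where 19.2% of all genes tested rose and 6.09% fell. Igfbp5 rose 3.42-fold, from between 507 and 562 to between 1690 and 2040. Igf2 had a log2 change of -0.79, its neighbour H19 one of -0.95 and Peg10 one of -2.32. Of 9 osteoclast support factors tested Csf1 alone passed (log2 -0.58), and with the block 3 fell. Tnfrsf11b (osteoprotegerin) ranged from 128 to 994 at day 8, with an adjusted p of 0.203.

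Most genes of glycolysis and glucose uptake rose, and about as many genes of cholesterol synthesis fell as did not pass. Of 23 glycolytic and related genes 17 rose and none fell (median 1.03), with medians of 1.07 in replicate 1 and 1.01 in replicates 2 to 4. Pgk1 went from 326, 402, 473 and 377 to 981, 1748, 1184 and 1094 (3.17-fold), Slc2a1 (GLUT1) rose 2.67-fold, Hk2 2.43-fold and Ldha 1.93-fold. Pdk1, which holds back pyruvate entry into mitochondria, rose 3.41-fold, Vegfa, an angiogenic factor, 4.1-fold and Bnip3, a mitophagy receptor, 4.37-fold. The 6 members that did not pass include the transporters Slc2a4 (GLUT4, log2 0.09), Slc2a3 (GLUT3, log2 0.84) and Slc16a3 (a lactate exporter, log2 1.79, adjusted p = 0.0584). Replicate 2 was the highest day 14 library for Pgk1, Slc2a1, Hk2, Ldha, Pdk1, Vegfa and Bnip3. Of 25 cholesterol genes 12 fell, 1 rose and 12 did not pass (median -0.37). Hsd17b7, an enzyme of the pathway, had a log2 change of -0.80. Abca1, which exports cholesterol, was the member that rose (1.66-fold, adjusted p = 0.0375, and 0.0761 with the block).

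**Figure D4:**
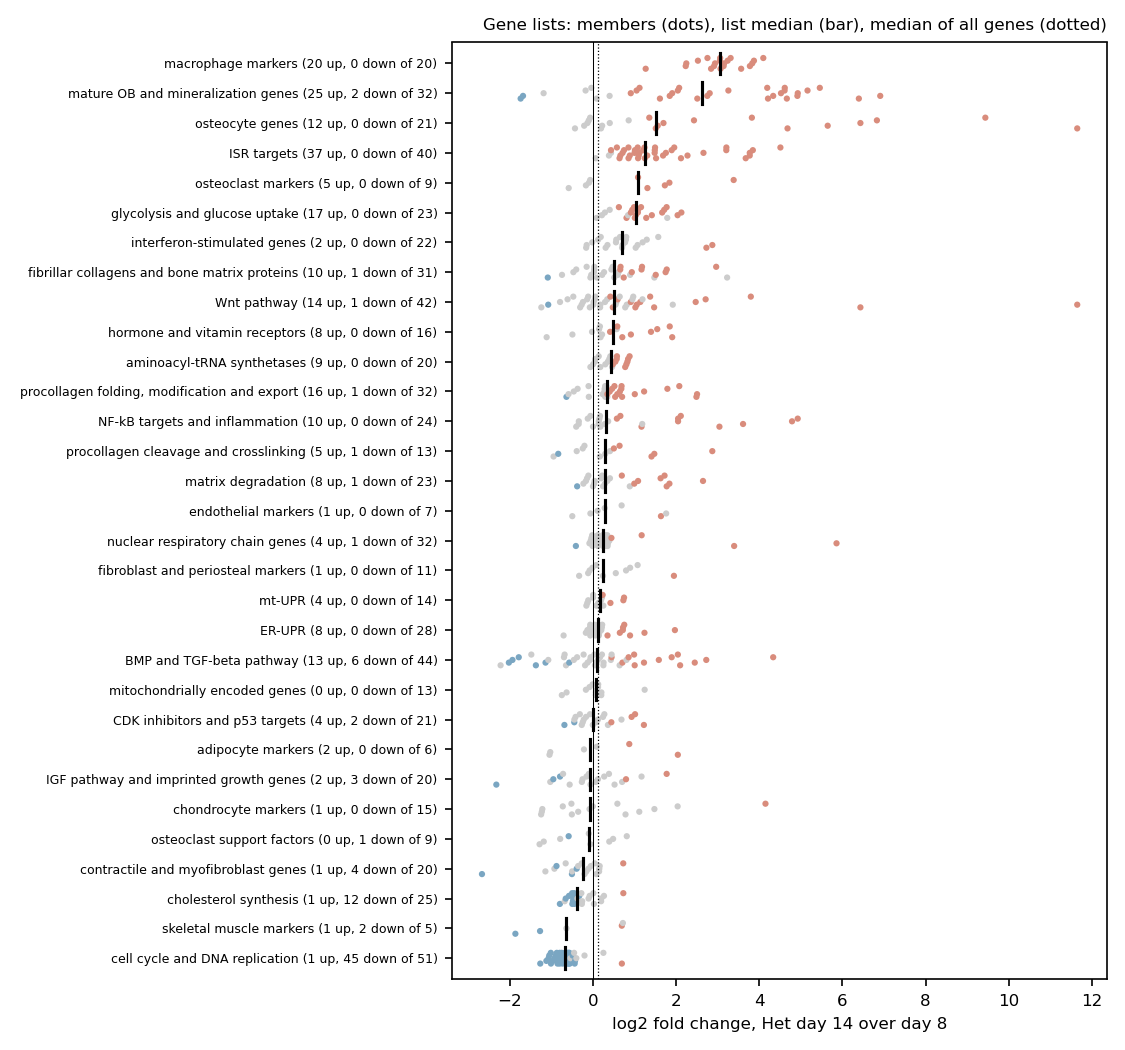
Log2 fold change from Het day 8 to day 14 (x axis) of the tested members of 31 gene lists (rows, sorted by median), with members higher at day 14 in red, lower in blue and not called in grey, the list median as a bar and the median of all genes (0.12) as a dotted line. Macrophage markers and mature OB genes lie farthest to the right, with medians of 3.06 and 2.63, and cell cycle genes farthest to the left at -0.66.

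Among markers of other cells, those of macrophages rose as a set. All 20 macrophage markers rose (median 3.06), and their summed RQ went from 450 to 1213 at day 8 to 3878 to 8732 at day 14, or from between 0.0245% and 0.0751% to between 0.2% and 0.426% of all counts, with replicate 1 lowest at both days. Adgre1 (F4/80) rose 11.8-fold, Mrc1 14.2-fold, Csf1r 5.75-fold and Lyz2 7.53-fold, and no marker of the list was at 0 at either day. Lyz1 and Lyz2 are close copies and may share reads. In these bulk samples more macrophages and more RNA per macrophage cannot be told apart, and the part of these cells in other changes was not tested. Of 24 inflammation genes 10 rose and none fell, with the highest folds in Saa3 (30.4-fold), Nos2 (27.6-fold), C3 (12.2-fold) and Cxcl2 (8.24-fold), and Tnf rose 4.14-fold while Ccl2 had a log2 change of -0.06. Of 22 interferon-stimulated genes 2 rose (Oas2, 7.32-fold, and Oas1a, 6.63-fold) and none fell, where 19.2% of all genes tested rose.

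Of 9 osteoclast markers tested 5 rose. For this list and those below, 19.2% of all genes tested rose and 6.09% fell. Atp6v0d2, a proton pump subunit of osteoclasts and macrophages, rose 10.4-fold and Ctsk, cathepsin K, 2.12-fold, and Acp5 (TRAP) had a log2 change of -0.07 and Nfatc1 one of -0.10. The summed RQ of all 12 listed osteoclast markers was 471 to 611 at day 8 and 776 to 1204 at day 14. Ctsk alone made up most of this sum in every library, and Calcr was at 0 in all 4 day 14 libraries. Chondrocyte markers were uneven between replicates. Their summed RQ was 38206, 6625, 7894 and 19286 at day 8 and 30356, 2136, 3014 and 3861 at day 14, so that replicate 1 was highest at both days. Of 15 tested 1 rose, Ihh (17.8-fold), and with the block 4 also fell. Col2a1 had a log2 change of -1.23 (adjusted p = 0.414, or 0.00698 with the block) and Sox9 one of -1.22 (0.0695, or 0.00195 with the block). Of 6 adipocyte markers tested 2 rose, among them Lpl (4.12-fold). Of 7 endothelial markers 1 rose (Kdr, 3.11-fold, at 10 to 95 counts per library) and 6 did not pass. Of 11 fibroblast and periosteal markers 1 rose, Scara5 (3.86-fold), with the block 4 rose, and with TMM none rose and 1 fell. Of 5 skeletal muscle markers tested 1 rose and 2 fell, and Myod1, Myf5 and Pax7 were at 0 in all 8 libraries.

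Whether the change from day 8 to day 14 differed between Het and WT was tested as an interaction in 16 libraries. Of 19658 genes tested 3 did so (0.0153%), all with a more positive change in Het, and none were more negative (0%). At an unadjusted p under 0.05 there were 683 genes, 441 of them more positive and 242 more negative in Het. These 683 are a smaller share of the 19658 than the 0.05 that genes without a difference would give. DESeq2 on the housekeeping scale called 30 more positive and 6 more negative genes. In WT alone 5391 of 18479 genes tested rose and 1662 fell over the same days.

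Car6, a secreted carbonic anhydrase (chr4:150187015-150201332, minus strand), was at 0.285, 0.506, 0.478 and 0.323 in Het at day 8 and at 3.29, 22.3, 12.6 and 11.7 at day 14. In WT it was at 0.343, 0.183, 0.404 and 0.276 at day 8 and at 0.183, 0.244, 0.231 and 0.249 at day 14, which were 2 to 7 counts. The difference of the log2 changes was 5.27 ± 0.70 SE (adjusted p = 0.0232). It was positive in 4 of 4 replicates when libraries were matched by number, here and below, and the numbers may not mark matched wells. Only the Het day 14 libraries stood above the rest. Cdsn, corneodesmosin, an adhesion protein known from skin (chr17:35552128-35557180, plus strand), moved in opposite directions. It went from 124, 199, 195 and 176 to 343, 474, 273 and 272 in Het and from 123, 259, 239 and 212 to 55.1, 77.8, 87.9 and 71.1 in WT, a difference of 2.48 ± 0.34 SE (adjusted p = 0.0232, 4 of 4 replicates). Trib3 rose in both genotypes, in WT from 7.55, 4.13, 4.84 and 4.93 to 23.7, 26.9, 24.2 and 23.4, and its log2 change was larger by 2.28 ± 0.34 SE in Het (adjusted p = 0.0419, 4 of 4 replicates).

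**Figure D5:**
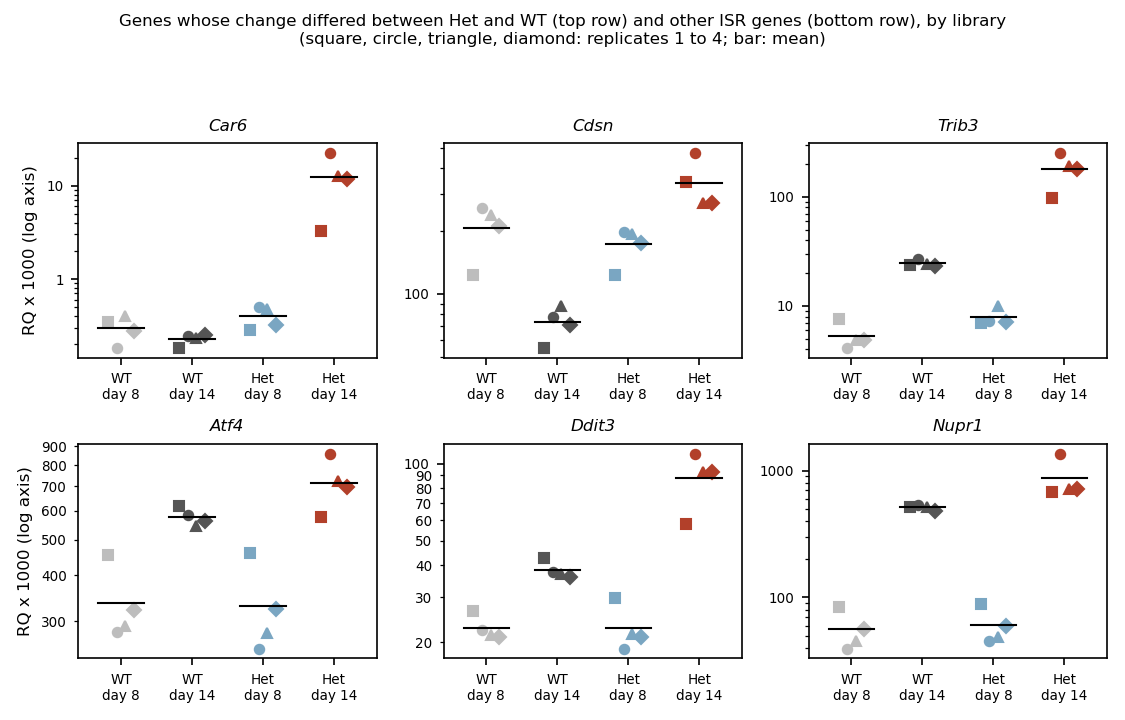
RQ per 1000 housekeeping counts (log y axis) in WT (grey) and Het (blue at day 8, red at day 14) libraries, with replicates 1 to 4 as square, circle, triangle and diamond and the mean as a bar, for the 3 genes whose change differed between the genotypes (top row) and for Atf4, Ddit3 and Nupr1 (bottom row). Car6 stays below 0.6 outside Het day 14, Cdsn falls in WT and rises in Het, and Trib3 rises in both with Het day 14 at 97.6 to 251 against 23.4 to 26.9 in WT.

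These calls depended on the fit. With the replicate block there were 5 calls, all more positive in Het, 2 of them shared: Cdsn and Car6 stayed, Avil (3.48 ± 0.25 SE), Ostn (5.81 ± 0.56 SE) and the predicted gene Gm32312 joined, and Trib3 missed the threshold (adjusted p = 0.0521). With TMM none were called, with adjusted p-values of 0.0733 for Car6 and 0.0781 for Cdsn and Trib3. Without replicate 1, 426 genes were more positive and 69 more negative in Het, all 3 among them, and without replicate 2, 3 or 4 none were called. Over 34 alternatives the difference stayed between 4.85 and 5.57 for Car6, between 2.27 and 2.67 for Cdsn and between 2.08 and 2.47 for Trib3, and the adjusted p was under 0.05 in 18, 18 and 13 of them.

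Among the ISR targets, 18 of 40 had an unadjusted p under 0.05 for a more positive change in Het, with a median difference of 0.56 against -0.01 over all genes. The study's own markers, which overlap them, held 13 of 27. None were more negative at that level. The study reported its markers for Het against WT in these same cultures, so neither count is independent evidence of a difference. Without replicate 1, 19 of the 40 were called more positive at an adjusted p under 0.05, against 426 of all 19235 genes tested in that fit. The 19 include Ddit3, with a difference of 1.48 ± 0.11 SE, Cth (1.96 ± 0.27), Slc7a3 (1.63 ± 0.30) and Gdf15 (1.41 ± 0.28). Atf4 (0.49 ± 0.14, adjusted p = 0.0892) and Nupr1 (0.73 ± 0.31, adjusted p = 0.251) did not pass there. Replicate 1 was left out after it was seen to stand apart. The remaining replicates may be wells of a single experiment, which the labels do not settle. The SEs of that fit may then hold only the spread between wells of the same pool. Of the 32 OB and mineralization genes 7, and of the 21 osteocyte genes 5, were more positive at an unadjusted p under 0.05, with none more negative, and the median differences were 0.24 and 0.34. Over all 19658 genes 441 were more positive and 242 more negative at that level. Of 51 cell cycle genes 7 were more negative and 1 more positive, and of 25 cholesterol genes 6 were more negative and none more positive (median -0.27). The fitted changes in WT of the genes that rose most in Het were of the same sign, 8.40 for Sost, 7.89 for Mepe, 7.25 for Bglap and 4.56 for Ptprz1, and their differences did not pass the test.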

How the data were processed

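RNASeq counts per gene were deposited by the authors as whole numbers, one table per library, and were used as deposited. The submitters' processing notes name cutadapt 2.5, STAR 2.73a and featureCounts 1.6.4 of Subread on mm10. Strand and multi-mapping settings are not given in the sources used here. RQ was computed as described above. Changes were fitted to the counts with edgeR 4.0.16 (R 4.3.3), using its quasi-likelihood test with the housekeeping geometric mean as library scale, its default filter on low counts and Benjamini-Hochberg adjustment. DESeq2 1.42.0, other scalings, other filters and left-out libraries were alternatives. Shares of counts were compared by two-sided exact permutation tests. Named genes were the 15 largest rises and 15 largest falls among genes called, with a mean of at least 50 counts, no overlap between days and a gene symbol that is not a predicted name. All genes called for a difference between genotypes, the housekeeping genes, the study's 27 markers, and the largest changes and defining members of each list were also named. The genes called for that difference only with the replicate block were named after their values were seen. Gene positions are from GENCODE M21 (GRCm38), which held 724 of 738 listed or named genes.

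The comparison, the lists and the tests were chosen with earlier results of these data known. Deviations of same-numbered day 8 and day 14 libraries correlated at 0.144 to 0.586 in the 4 pairs, and those of other numbers at -0.549 to 0.435 (median -0.10). Only 2 of 4 day 8 libraries were closest to their own number. A fit with the replicate number as a block was made beside the one without. The pairing comes from the data and the numbers in the labels, and among replicates 2 to 4 alone the correlations were -0.21 to 0.07. On simulated counts for the 18200 genes of the Het comparison, 67% of 2-fold and 98% of 4-fold changes were recovered and 2.94% of calls were false. For the difference between genotypes (19658 genes) these were 59%, 88% and 3.92%. The simulation changed 100 genes at each fold, all with a mean of at least 50 counts, and drew each library independently. It held no shared pools, no replicate 1 set apart and no shift of the housekeeping scale. The 2.94% and 3.92% are therefore not the false-call rates of the results above. Depth was 17140202 to 56219341 counts per Het library. Some genes are not reported here.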

Additional observations from a re-analysis of the deposited data

Results flagged for a closer look

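Single libraries stood apart from the other 3 of their day in 39 of 404 groups of 4 examined (9.65%). In each, the gap to the nearest library exceeded Dixon's 95% critical value. About 1 in 20 groups would do so if all values were independent and normally distributed. These RQ values need not be, so the 9.65% cannot be set against that rate. Day 14 replicate 1 was the library in 16 of the 39 groups and day 14 replicate 2 in 15, and no day 14 library of replicates 3 or 4 was. All values are RQ per 1000 housekeeping counts.

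High in day 14 replicate 1 were Mepe at 188, Smpd3 at 1373, Fn1 at 38498, Chad at 73.8, Col2a1 at 18979, Frzb at 160, Serinc2 at 5.67 and the housekeeping gene Sdha at 362. Low there were the matrix gene Col3a1 at 5153, the macrophage genes Mrc1 at 300, Adgre1 at 178, C1qa at 201 and Lyz2 at 1790, and Dynap at 0, Chac1 at 77 and Gadd45a at 30.5.

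High in day 14 replicate 2 were Bglap at 424, Bglap2 at 561, Dmp1 at 145, Ifitm5 at 269, Dlx3 at 110, Lpar3 at 30.3 and Ccdc194 at 91.1. So were Nupr1 at 1359, Sars at 550, Loxl4 at 681, Ldha at 4279, Trap1 at 154 and Cdk1 at 163. Axin2 at 7.08 and Tnfrsf11b at 103 were low there.

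At day 8, replicate 1 stood apart with Chad at 4.63, Hspa5 at 1795, Hsp90b1 at 2501 and Derl3 at 2.42. Replicate 2 did so with Ero1l at 71.9 and Pcna at 251, replicate 3 with Trib3 at 10, and replicate 4 with Sost at 0.0323, which was 1 count.

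The change from day 8 to day 14 differed between Het and WT by the interaction test for Car6 (log2 difference 5.27), Cdsn (2.48) and Trib3 (2.28).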

How the results depend on the processing

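Rises outnumbered falls on the housekeeping scale and with TMM, and not with total counts (2070 higher, 3884 lower). Falls numbered 2129 with TMM, 2149 with DESeq2's size factors in edgeR, 2638 with DESeq2 on its own factors and 1713 with replicate 1 as a covariate. All 24 libraries in the fit gave 5392 higher and 1836 lower. Leaving out a replicate number gave 1563 to 6274 higher and 330 to 1783 lower, the highest without replicate 1 and the lowest without replicate 4. Without day 8 replicate 4 alone 661 fell, and without day 14 replicate 4 alone 667. With the replicate block 3236 rose and 1217 fell, 3888 of them shared with the 4596, and calls it changed stand beside the genes above.

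Genes more positive in Het numbered 0 with TMM, with DESeq2's size factors in edgeR or without Mrfap1 in the scale. They numbered 30 with DESeq2 on the housekeeping scale, 40 on its own factors, 5 with the replicate block, 11 with the covariate and 12 with all 24 libraries. Genes more negative numbered 6, 7 and 1 with DESeq2 on both scales and the covariate. Leaving out a replicate number gave 0 to 426 more positive and 0 to 69 more negative, and leaving out single libraries, chosen after seeing the data, 0 to 41 and 0 to 5. The 41 came without Het day 14 replicate 1, and 23 without WT day 8 replicate 1.

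The ratio of day 14 to day 8 without a replicate was 2.52 to 3.01 for the type I collagen share, 1.32 to 1.36 for the 10 top genes, 0.797 to 0.857 for the housekeeping CPM and 0.714 to 1.03 for the mitochondrially encoded share. With 3 against 3 the exact permutation p cannot go below 0.1. List medians in replicate 1 alone were 0.93 for osteocyte genes, 0.52 for ISR targets, -0.77 for the cell cycle and 3.61 for macrophage markers, and the cell cycle median was -0.79 with TMM and -0.93 with total counts. Trap1 turned to -0.26 with total counts, and Dnajb9 (-0.20) and Abca1 (-0.28) were lower at day 14 in replicate 1. The cause was not tested. At low counts such as those of Sost at day 8 the fold depends on single reads.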
